A study of Mus musculus with 2 samples.

Results

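The genes described here are 37 mouse genes of glucose use, out of 27998 in the count table. They were taken by symbol from a list drawn up with earlier results of these data known, so their counts are descriptions, and all 37 symbols were in the table. They comprise 2 glucose transporters, 15 enzyme genes of glycolysis, 3 genes of the PFKFB enzymes that regulate it, 4 genes of lactate production and export, 9 genes of pyruvate entry into mitochondria and 4 genes of the pentose phosphate branch. Their levels were compared between a control and a Mekk3 mutant library of single cells, and between cells with at least 1 molecule of Cdh5, which encodes the endothelial VE-cadherin, and cells with none.

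Droplet-based single-cell RNA sequencing had been run on sorted cells of C57BL/6J mouse embryos, taken from the dorsal aorta, the umbilical artery and the vitelline artery. Both libraries came from the same sort gate, Ter119-, CD41lo/-, CD31+CD144+ and ESAM+. Control cells came from Mekk3 fl/fl and Mekk3 fl/+ embryos at day 9.5 of embryonic life, with no Cre named in the label. Mutant cells came from Mekk3 fl/-; Tie2Cre+ embryos, entitled day 9.5 but given a stage of 9.7 in a second label. Tie2Cre is driven in endothelial cells and in blood cells, so deletion is meant to occur in both. How many embryos were pooled for each library is not given in the sources used here.

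Glucose enters cells through facilitative transporters and is broken down by glycolysis to pyruvate. Pyruvate is either reduced to lactate and exported, or carried into mitochondria and oxidised by the pyruvate dehydrogenase complex, which the Pdk kinases inhibit. The pentose phosphate branch diverts glucose 6-phosphate to NADPH and ribose. Endothelial cells are known for drawing most of their ATP from glycolysis.

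Each group had 1 library, so no test between genotypes was possible and no p-value is given. Genotype cannot be told apart from stage, embryo, sex and library preparation. There were 60790367 unique molecular identifiers (UMIs, each 1 captured molecule) in 6675 control cells and 21512713 in 3242 mutant cells. The libraries shared 5 cell barcodes. Cdh5-positive cells numbered 5737 in the control (85.9% of cells, exact Clopper-Pearson 95% interval 85.1 to 86.8) and 2352 in the mutant (72.5%, 71.0 to 74.1), with medians of 8353 and 6726.5 UMIs per cell. The share of control and mutant UMIs in these cells was 25.1% and 31.4% on ribosomal-protein genes and 4.10% and 2.99% on mitochondrially encoded genes. Map3k3, which encodes Mekk3, stood at 9.37 and 10.999 UMIs per 1000000 UMIs in Cdh5-positive cells. Counted tags sit at the 3′ end of a transcript, which the deletion may leave in place, so this level is no check of the genotype.

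Levels are UMIs per 1000000 UMIs of the class (CPM). A 3′ tag is counted once per molecule, so CPM was not divided by gene length, and every level given below is on this scale. Intervals after a level are exact Poisson intervals, and those after a ratio of mutant to control are exact conditional intervals, both at 95%. They cover counting error only, not the spread between embryos or libraries. A count of 0 would allow up to 0.0536 CPM in control and 0.169 CPM in mutant Cdh5-positive cells.

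The 37 genes together took 6454 CPM (6433 to 6475) in control and 16049.7 CPM (15990.8 to 16109) in mutant Cdh5-positive cells, a ratio of 2.49 (2.47 to 2.50). As shares of all UMIs these are 0.645% and 1.60%. With totals that left out mitochondrial, ribosomal and hemoglobin genes, whose shares also differed, the ratio was 2.68. Without Gapdh, the most abundant of them, the sums were 4760.1 and 12142 CPM and the ratio was 2.55. The difference was uneven along the pathway. Transport was 4.61-fold higher in the mutant (4.50 to 4.73), the glycolysis enzymes 2.72-fold (2.70 to 2.73) and the lactate genes 2.42-fold (2.39 to 2.45). The pyruvate entry genes were near equal, at 1.08-fold (1.05 to 1.11), and the pentose phosphate genes were lower, at 0.662-fold (0.643 to 0.682).

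Of the 37 genes, 36 had at least 20 UMIs over both libraries and were compared one by one. Of these, 21 were at least 2-fold higher in the mutant, where 8.11% of all 13034 genes compared were, and 2 were at least 2-fold lower, where 10.1% of all genes were. At 1.5-fold, 22 were higher and 3 lower, against 16.2% and 23.1% of all genes. The median log2 ratio was 1.23 over the 36 genes and -0.11 over all genes compared. By step, the 2-fold higher genes were 2 of 2 transporters, 13 of 14 compared glycolysis genes, 1 of 3 PFKFB genes, 2 of 4 lactate genes, 3 of 9 pyruvate genes and 0 of 4 pentose phosphate genes.

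**Figure D1:**
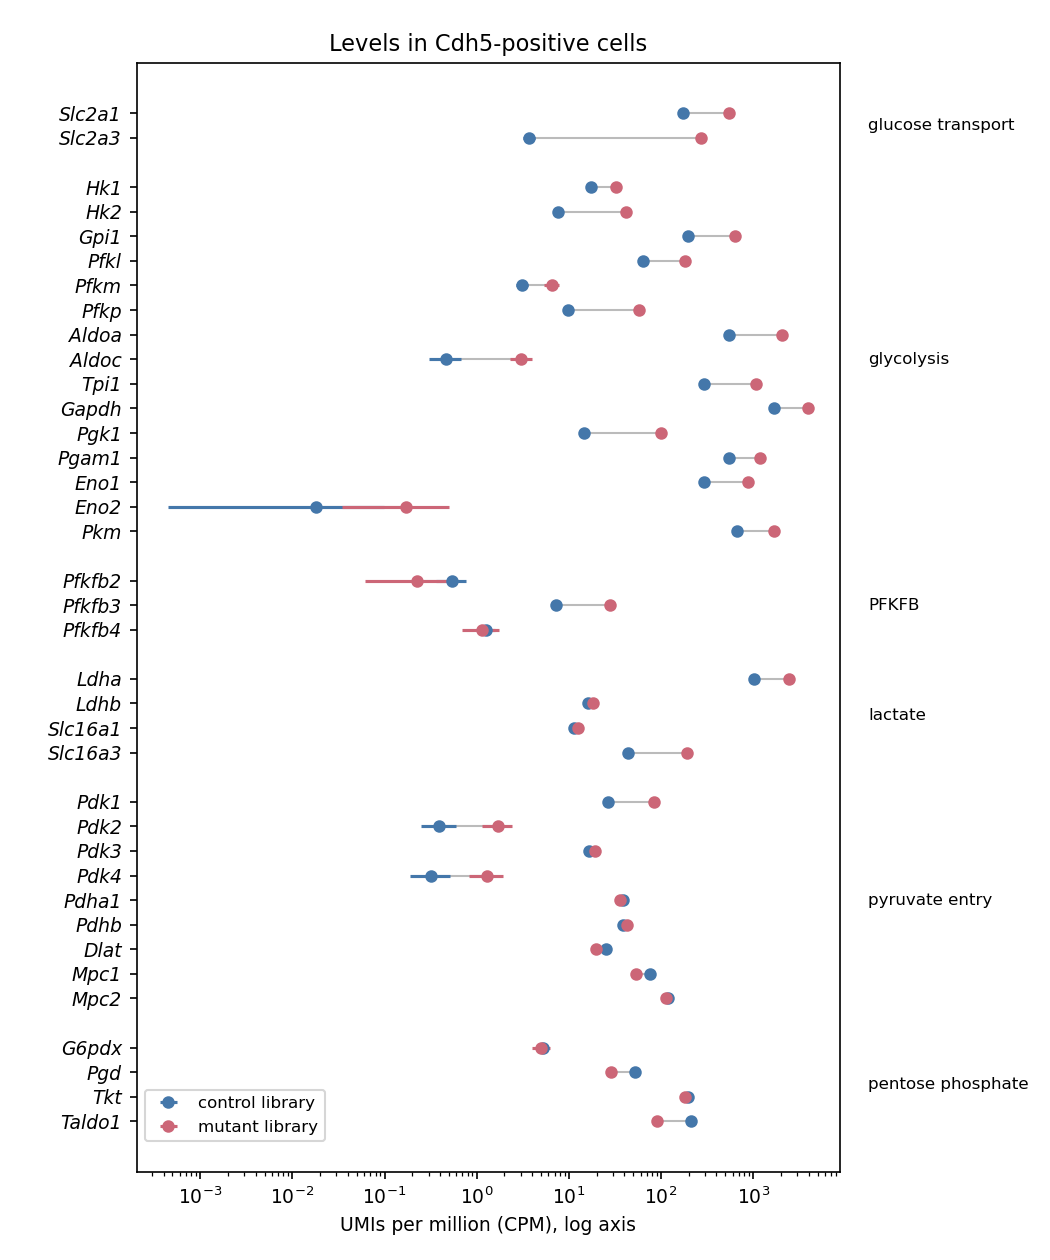
Levels of the 37 genes in Cdh5-positive cells, in CPM on a log axis, with control in blue, mutant in red and 95% Poisson intervals as horizontal bars. Transport and glycolysis genes lie farther right in the mutant, the pyruvate dehydrogenase subunits nearly coincide, and Taldo1 and Pgd lie farther left in the mutant.

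Sequence before the start sites of 5 of these genes is shown, 4 that were higher in the mutant at transport, the first step of glycolysis, an ATP-yielding step and pyruvate control, and 1 of the branch that was lower. Hypoxia-inducible factors, known regulators of glycolytic genes, bind a site whose core letters are ACGTG or GCGTG. In the lines below, capitals mark each match to a core or to its reverse complement, CACGT or CACGC, and a CACGTG would count as a match on both strands. The sequences are RefSeq promoter sequences on GRCm38.p6, read 5′ to 3′ along the gene's strand, and end before the gene's start in both this RefSeq entry and GENCODE vM21. Coordinates are in the same order for Slc2a1, chr4:119108495-119108710 on the plus strand, Hk2, chr6:82774455-82774704 on the minus strand, Pgk1, chrX:106186850-106187099, Pdk1, chr2:71872974-71873223, and Taldo1, chr7:141391910-141392159, the last 3 on the plus strand.
Slc2a1: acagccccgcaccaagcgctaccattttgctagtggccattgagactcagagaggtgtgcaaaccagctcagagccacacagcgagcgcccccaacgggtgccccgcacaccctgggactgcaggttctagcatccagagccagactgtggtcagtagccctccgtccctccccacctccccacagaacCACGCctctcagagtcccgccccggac
Hk2: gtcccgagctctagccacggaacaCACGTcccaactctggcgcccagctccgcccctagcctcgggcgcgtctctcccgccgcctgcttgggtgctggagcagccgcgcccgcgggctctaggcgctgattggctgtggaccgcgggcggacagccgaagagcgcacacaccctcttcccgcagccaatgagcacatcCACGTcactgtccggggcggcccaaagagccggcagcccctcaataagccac
Pgk1: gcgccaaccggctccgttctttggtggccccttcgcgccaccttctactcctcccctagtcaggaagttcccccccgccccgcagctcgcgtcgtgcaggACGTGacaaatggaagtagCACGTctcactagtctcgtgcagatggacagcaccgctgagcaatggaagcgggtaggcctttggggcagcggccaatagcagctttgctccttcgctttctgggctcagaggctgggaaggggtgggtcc
Pdk1: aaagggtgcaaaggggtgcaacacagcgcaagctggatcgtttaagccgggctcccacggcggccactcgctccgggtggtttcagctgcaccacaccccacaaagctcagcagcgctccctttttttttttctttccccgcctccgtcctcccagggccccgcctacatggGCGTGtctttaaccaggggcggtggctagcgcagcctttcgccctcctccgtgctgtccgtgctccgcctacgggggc
Taldo1: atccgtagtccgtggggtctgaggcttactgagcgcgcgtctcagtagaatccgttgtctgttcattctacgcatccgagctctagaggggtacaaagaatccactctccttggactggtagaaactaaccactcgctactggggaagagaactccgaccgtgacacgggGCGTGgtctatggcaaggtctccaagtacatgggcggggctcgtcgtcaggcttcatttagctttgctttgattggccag
The matches began 61 bases before the RefSeq start in Slc2a1, 226 and 52 in Hk2, 150 and 131 in Pgk1, 78 in Pdk1 and 80 in Taldo1. Taldo1, which was lower in the mutant, thus held a core as the 4 higher genes did.

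Over the 250 bases before the RefSeq starts, 32 of the 36 genes found in the table (88.9%) had at least 1 such core, against 11226 of all 27025 genes with a promoter (41.5%). A gene was counted if any of its promoters held a core. By promoter, the shares were 42 of 54 (77.8%) and 12679 of 32851 (38.6%). By gene, the share was 18 of 20 (90%) among those at least 2-fold higher in the mutant. It was 14 of 15 (93.3%) among the other compared genes, so a core was about as common in both. These are letter matches without a control for base composition, and no binding was measured. Slc2a3 had no entry.

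Slc2a1 encodes GLUT1, the main glucose transporter of endothelium, and Slc2a3 encodes GLUT3, a transporter of higher affinity. In Cdh5-positive cells Slc2a1 had 9720 UMIs in the control, or 174 CPM (170.3 to 177), and 9656 in the mutant, or 545 CPM (534 to 556). Slc2a3 had 207 UMIs in the control, or 3.70 CPM (3.21 to 4.24), and 4857 in the mutant, or 274 CPM (266 to 282). The ratios were 3.13 (3.05 to 3.22) for Slc2a1 and 74.0 (64.4 to 85.5) for Slc2a3, the highest among the 36 genes. Slc2a3 thus went from 2.09% (1.81 to 2.39) of the UMIs of the pair in the control to 33.5% (32.7 to 34.2) in the mutant.

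The upper steps of glycolysis, which spend ATP, begin with hexokinase. Hk1, the constitutive hexokinase, gave 17.2 CPM in control and 32.6 CPM in mutant cells, and Hk2, the inducible one, gave 7.70 and 42.1 CPM. The ratios were 1.90 (1.71 to 2.10) and 5.46 (4.84 to 6.16), and Hk1 was the only compared glycolysis enzyme gene short of 2-fold. Hk2 went from 30.9% to 56.3% of hexokinase UMIs, from the minor to the major of the pair. Gpi1, which makes fructose 6-phosphate, stood at 194 and 632 CPM, 3.25-fold higher (3.17 to 3.34).

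Phosphofructokinase, the committed step, is encoded by Pfkl, Pfkm and Pfkp. Pfkl was the most abundant of them, at 63.8 and 184 CPM, with a ratio of 2.88 (2.75 to 3.02). Pfkp had 9.81 and 57.7 CPM and a mutant-to-control ratio of 5.88 (5.30 to 6.53), and its share of the 3 genes was 12.8% in the control and 23.3% in the mutant. The transcript end of Pfkp overlaps that of Pitrm1, and no source used here says whether counting kept to the strand. Over all cells Pitrm1 had 1897 UMIs and Pfkp 1863, and the part of this overlap in the Pfkp values was not tested. Pfkm had 174 and 116 UMIs, or 3.11 and 6.54 CPM, 2.10-fold higher (1.65 to 2.68).

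The PFKFB enzymes make or remove fructose 2,6-bisphosphate, the activator of phosphofructokinase. Pfkfb3, the form that favours its making and the main one in endothelium, had 401 UMIs in the control (7.17 CPM) and 500 in the mutant (28.2 CPM), a ratio of 3.93 (3.44 to 4.50). It took 80.0% of the UMIs of the 3 genes in the control and 95.4% in the mutant. Pfkfb4 had 70 and 20 UMIs, with a ratio of 0.902 (0.519 to 1.4995) whose direction changed under 3 alternatives. Pfkfb2 had only 30 and 4 UMIs. Its ratio of 0.421 (0.108 to 1.19) placed it at least 2-fold lower, but the interval included 1 and the log2 ratio went from -1.10 to 0.31 when cells were thinned to equal depth.

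Aldolase splits the 6-carbon sugar, and Aldoa was nearly the only aldolase here. It stood at 552 CPM in the control (30891 UMIs) and 2069.6 CPM in the mutant (36693 UMIs), 3.75-fold higher (3.69 to 3.81). Aldoc, the brain form, had 26 and 54 UMIs, or 0.465 and 3.05 CPM, 6.55-fold higher (4.03 to 10.9). Tpi1, which interconverts the 2 triose phosphates, reached 293 and 1077 CPM, which is a ratio of 3.68 (3.601 to 3.75).

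The lower steps, which yield ATP, were led in level by Gapdh, at 1694 and 3908 CPM, 2.31-fold higher (2.28 to 2.33). Pgk1, the X-linked gene of the first ATP-making step, had the highest ratio of the glycolysis enzyme genes, 6.84 (6.30 to 7.44), from 14.7 CPM (824 UMIs) to 101 CPM (1787 UMIs). Its level was far below those of its neighbours in the pathway in both libraries. Pgam1 stood at 553 and 1185 CPM, with a ratio of 2.14 (2.10 to 2.18), the lowest past 2-fold in these steps.

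Enolase and pyruvate kinase complete glycolysis. Eno1 stood at 291 and 875 CPM, 3.002-fold higher (2.94 to 3.07), and Pkm at 669 and 1688 CPM, 2.52-fold higher (2.49 to 2.56). Eno2, the neuronal enolase, had 1 control and 3 mutant UMIs, at or under the floor of 3, and is the gene of the 37 that was not compared. Processed copies can share reads with several of these genes. The last 300 bases of Gapdh matched 134 other annotated genes at 95% identity, 126 of them pseudogenes. Those of Ldha matched 6, of Eno1 5 and of Aldoa, Tpi1 and Pkm 2 each. Matching genes that were counted held 109 UMIs over all cells for Gapdh, against 188142 of its own. They held 280 against 36767 for Eno1 and 3 against 78653 for Aldoa, and no gene matching Ldha, Tpi1 or Pkm was counted. The levels of these genes remain uncertain to the extent that reads matching copies were left out of counting.

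Lactate dehydrogenase turns pyruvate to lactate, and the monocarboxylate transporters carry lactate across the membrane. Ldha, the form that favours lactate, gave 1031 CPM in control and 2442 CPM in mutant cells, 2.37-fold higher (2.34 to 2.40). Ldhb, the form that favours pyruvate, stood at 16.2 and 18.4 CPM, and its ratio of 1.14 (0.998 to 1.29) did not clear 1. The 2 libraries thus differed in Ldha, while a difference in Ldhb was not detectable at this depth.

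Slc16a3 encodes MCT4, an exporter of glycolytic cells, and Slc16a1 encodes the widely expressed MCT1. Slc16a3 had 2426 UMIs in the control (43.4 CPM) and 3380 in the mutant (191 CPM), a ratio of 4.40 (4.17 to 4.63). Slc16a1 measured 11.4 and 12.6 CPM, the mutant being 1.11-fold the control (0.949 to 1.29). The share of Slc16a3 in the pair was 79.2% in the control and 93.8% in the mutant.

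**Figure D2:**
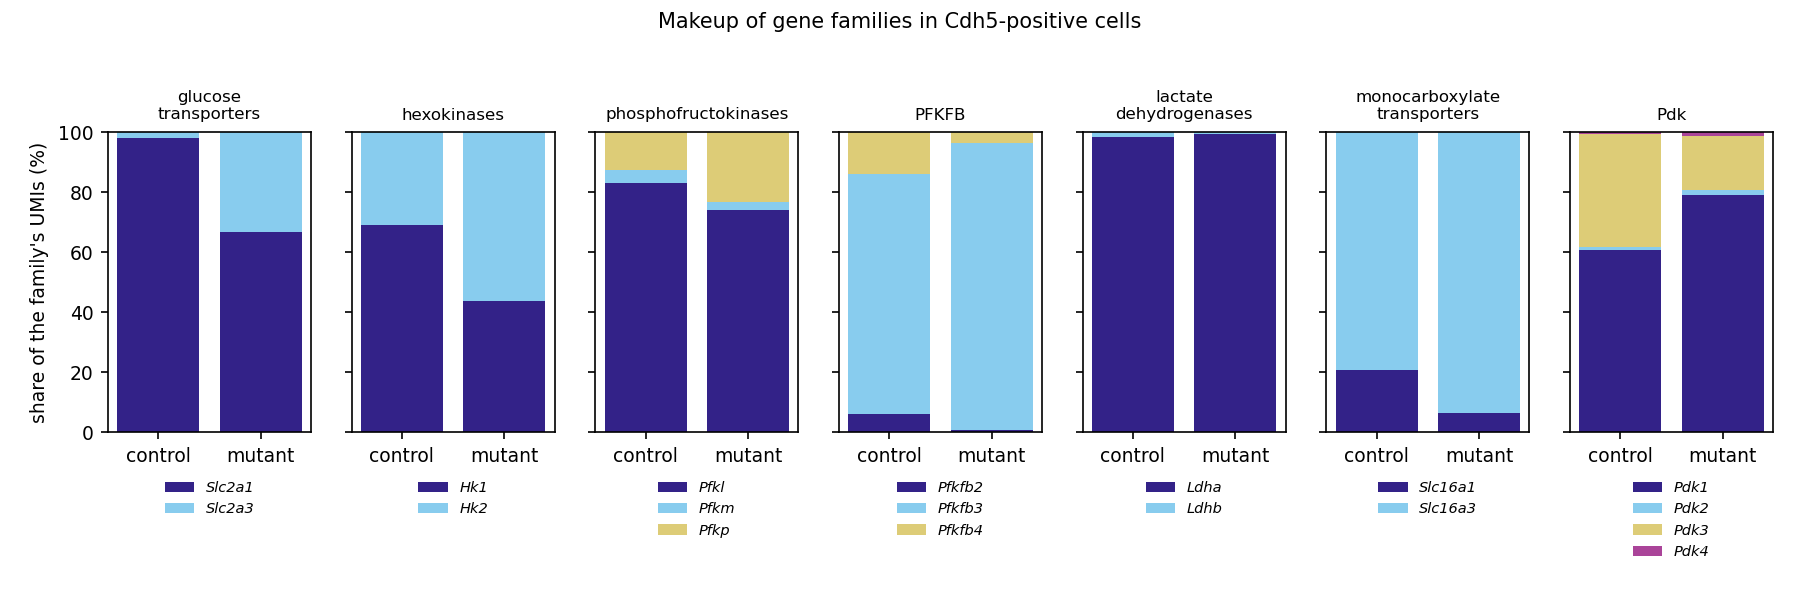
Share of each gene in the UMIs of its family, in percent, in control and mutant Cdh5-positive cells; each bar adds to 100. Slc2a3, Hk2, Pfkp, Pfkfb3, Slc16a3 and Pdk1 take a larger part of their bar in the mutant, while lactate dehydrogenase is nearly all Ldha in both.

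Taken as sums, the genes of inhibitors of pyruvate oxidation were higher in the mutant, mainly through Pdk1. The sum of the carrier and pyruvate dehydrogenase subunit genes was not. The 4 Pdk genes, whose kinases switch the pyruvate dehydrogenase complex off, summed to 43.7 CPM in control and 106 CPM in mutant cells, with a ratio of 2.43 (2.29 to 2.59). Pdk1 led them, at 26.5 and 84.2 CPM, 3.17-fold higher (2.95 to 3.41), and went from 60.8% to 79.2% of their UMIs. Pdk3 had 16.4 and 19.2 CPM and a mutant-to-control ratio of 1.17 (1.03 to 1.32). Pdk2 and Pdk4 were rare, with 22 and 18 UMIs in the control and 30 and 23 in the mutant, and ratios of 4.30 (2.40 to 7.83) and 4.03 (2.08 to 7.93).

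The 2 carrier genes and 3 subunit genes summed to 299 CPM in control and 265 CPM in mutant cells, with a ratio of 0.886 (0.858 to 0.915). Mpc1 and Mpc2 encode the subunits of the mitochondrial pyruvate carrier. Mpc1 reached 76.6 and 53.8 CPM, which is a ratio of 0.702 (0.654 to 0.753), and Mpc2 120 and 113 CPM, with a ratio of 0.941 (0.895 to 0.990). Among the pyruvate dehydrogenase subunits, Pdha1 had a ratio of 0.923 (0.844 to 1.01), Pdhb 1.11 (1.024 to 1.21) and Dlat, the acetyltransferase core, 0.781 (0.693 to 0.878). None of the 5 reached 1.5-fold either way, where 16.2% of all genes were that much higher and 23.1% that much lower. All genes had a median log2 ratio of -0.11. The direction of Mpc2 reversed when the totals left out mitochondrial, ribosomal and hemoglobin genes, and that of Pdhb when cells were thinned or lacked G2/M genes. The end of the Pdha1 transcript overlaps Map3k15, which had 25 UMIs in all.

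The pentose phosphate branch was the step that was lower in the mutant, at 460 CPM (454 to 465) in control cells and 305 CPM (297 to 313) in the mutant. Most of that lay in Taldo1, the transaldolase of the non-oxidative arm, with 11699 UMIs in the control (209 CPM) and 1607 in the mutant (90.6 CPM). Its ratio was 0.433 (0.411 to 0.457), and it was at least 2-fold lower in each alternative run on it. Pgd, the second dehydrogenase of the oxidative arm, measured 51.6 and 28.4 CPM, the mutant being 0.551-fold the control, with an upper bound of 0.606. Tkt, the transketolase, stood at 194 and 180.5 CPM, and its ratio of 0.931 (0.895 to 0.969) turned to a log2 ratio of 0.00 with the reduced totals. G6pdx, the X-linked entry enzyme, had 290 and 89 UMIs and a ratio of 0.968 (0.755 to 1.23), and its direction reversed under 9 alternatives.

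Cdh5-negative cells, 938 in the control and 890 in the mutant with medians of 3941 and 3152 UMIs, gave nearly the same pattern. The 37 genes summed to 6714 CPM (6642 to 6788) in control cells and 16239.9 CPM (16112 to 16369) in mutant cells, with a ratio of 2.42 (2.39 to 2.45). Of 31 genes compared, 18 were at least 2-fold higher, where 7.55% of 10360 genes were, and 2 at least 2-fold lower, where 11.7% were. The median log2 ratio was 1.25, against -0.13 over all genes. Slc2a3 stood at 4.54 CPM (22 UMIs) and 230.2 CPM (871 UMIs), a ratio of 50.7 (33.3 to 81.3), and Taldo1 at 217 and 102 CPM, 0.469-fold the control (0.416 to 0.528).

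The intervals of the ratios did not overlap between the classes for Hk2, Gpi1, Tpi1, Pgam1, Eno1 and Ldhb. Hk2 was 5.46-fold higher (4.84 to 6.16) in mutant Cdh5-positive cells and 3.30-fold (2.42 to 4.57) in mutant Cdh5-negative cells. Of the 31 genes compared in both classes, Ldhb had the largest difference in log2 ratio between them. Its level in Cdh5-negative cells was 56.1 CPM (49.7 to 63.2) in control cells and 27.2 CPM (22.2 to 33.0) in mutant cells, with a ratio of 0.485 (0.383 to 0.611), below the interval of 0.998 to 1.29 in Cdh5-positive cells. Cdh5-negative cells were not all of another type, since 8 endothelial markers summed to 2105 CPM in control and 2243 CPM in mutant cells, against 3550.1 and 3072 CPM in Cdh5-positive cells. Markers of other cells moved with genotype in this class. From control to mutant, the 7 hematopoietic markers summed to 239 and 10.8 CPM, and the 6 erythroid markers to 22691.9 and 7434 CPM. The 4 neural markers summed to 80.3 and 22.2 CPM, the 5 mesenchymal markers to 126 and 44.4 CPM, and the 4 smooth muscle markers to 35.5 and 185 CPM. At least 2-fold lower were 7 of 7 hematopoietic, 6 of 6 erythroid, 3 of 3 compared neural and 4 of 5 mesenchymal markers, against 11.7% of all genes. Of the smooth muscle markers, 2 of 2 compared were at least 2-fold higher, against 7.55% of all genes. The part of these markers in the Ldhb difference and in the ratios of this class was not tested.

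**Figure D3:**
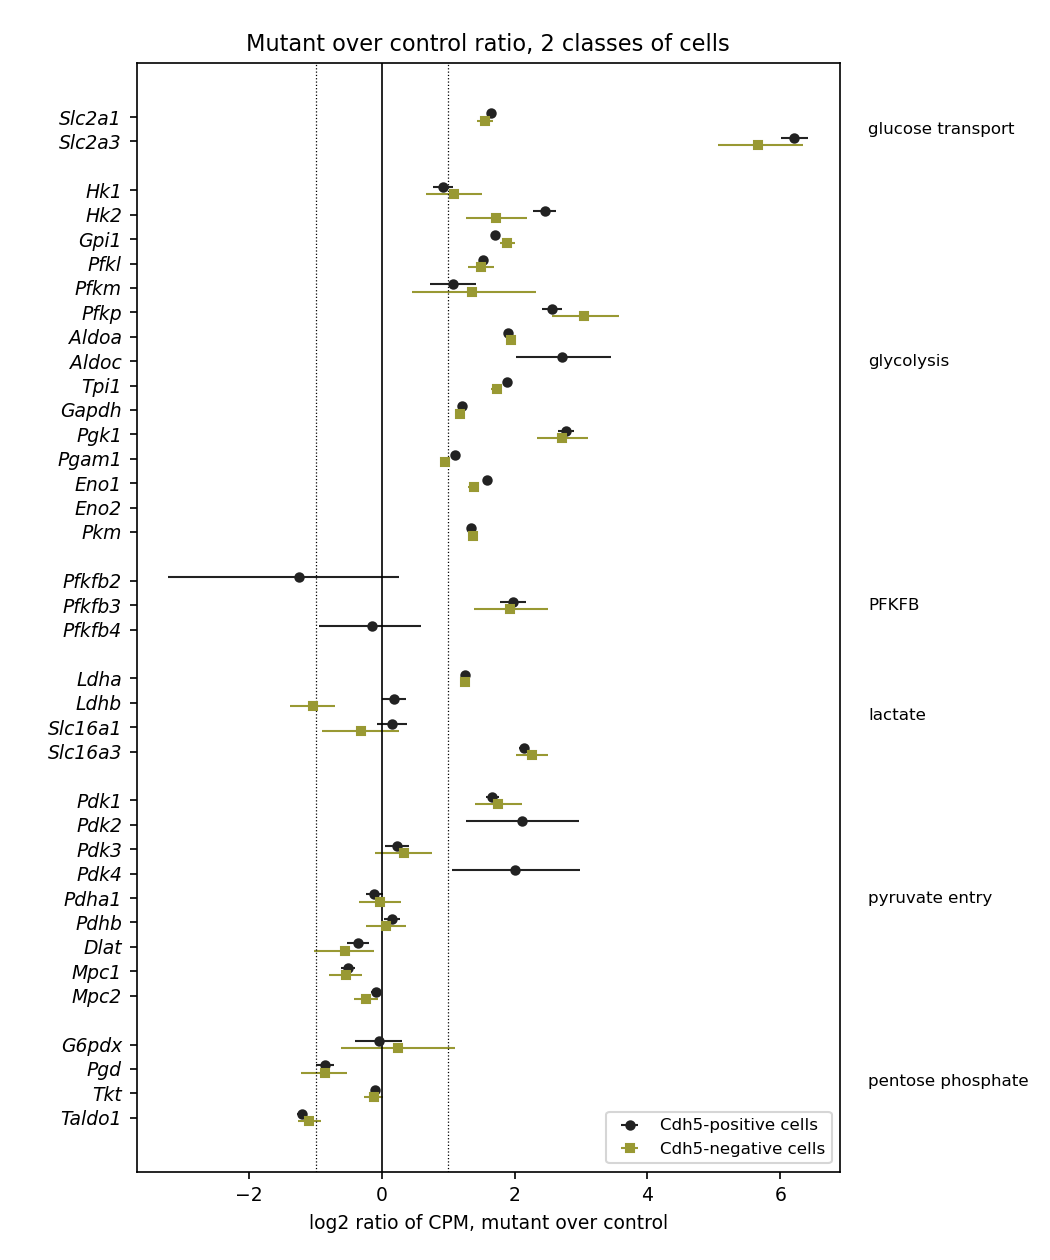
Log2 ratio of mutant to control for each gene with at least 20 UMIs, in Cdh5-positive cells (black circles) and Cdh5-negative cells (olive squares), with 95% intervals for counting error and dotted lines at 2-fold. The classes lie close together for most genes, with a gap for Hk2, at 2.45 and 1.72, and the largest gap for Ldhb, at 0.19 and -1.04.

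Within a library the 2 classes barely differed in these genes. The summed level in Cdh5-positive cells was 0.961 (0.9504 to 0.972) of that in Cdh5-negative cells in the control and 0.988 (0.980 to 0.997) in the mutant. No compared gene of 35 was at least 2-fold higher in Cdh5-positive cells in either library, against 3.89% of all genes in the control and 2.84% in the mutant. In the control 2 of 35 were at least 2-fold lower, against 6.9% of all genes, namely Ldhb, at 0.288 of the Cdh5-negative level (0.251 to 0.331), and Pdk2, which rested on 22 and 4 UMIs. In the mutant none was, against 2% of all genes, and Ldhb stood at 0.675 (0.540 to 0.851).

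The small set of cells with no UMI of Cdh5, Pecam1, Esam or Egfl7, 162 control and 104 mutant cells with medians of 4448 and 1596.5 UMIs, also had more of these transcripts in the mutant. Their endothelial markers summed to only 121 and 330 CPM. The 37 genes stood at 5969 and 16199.6 CPM there, a ratio of 2.71 (2.61 to 2.82), with glycolysis at 2.94-fold (2.81 to 3.07) and an interval of 5.03 to 9.86 for transport. Transport was much lower in these cells than in Cdh5-positive ones, at 56.3 CPM (42.3 to 73.5) in control cells and 394 CPM (326 to 473) in the mutant. Hemoglobin transcripts, whose red cells the Ter119- gate should exclude, stood at 100901 CPM in control and 41542 CPM in mutant cells of this set. In the control and mutant they took 22899.5 and 7426 CPM in all Cdh5-negative cells and 745 and 7.73 CPM in Cdh5-positive cells. Their part in these results was not tested, and free RNA was not removed from the counts.

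Kinds of Cdh5-positive cell differed in transport more than in glycolysis. Cells with a marker of arteries and none of veins (1036 control, 706 mutant) had transport sums of 333 CPM (319 to 347) in control cells and 1180.2 CPM (1149 to 1212) in the mutant. Cells with a venous and no arterial marker (2391 control, 611 mutant) had 135 CPM (130.0 to 139) and 587 CPM (567 to 608). Transport was thus higher in the arterial than in the venous cells within each library. The arterial cells were also shallower, with control and mutant medians of 4842 and 5703 UMIs against 9043 and 8634 in the venous cells, and hemoglobin stood at 1322.5 and 7.37 CPM in arterial and 24.9 and 13.2 CPM in venous cells. The part of depth and hemoglobin in the transport difference was not tested. By contrast, glycolysis sums were 3864 and 11727 CPM in arterial and 4368 and 11852 CPM in venous cells. The mutant-to-control ratio of the 37 genes was 2.74 (2.70 to 2.77) in the arterial and 2.47 (2.45 to 2.49) in the venous cells. The arterial markers were Gja4, Gja5, Dll4, Hey1 and Efnb2, and the venous ones Nr2f2, Aplnr and Ephb4. They differed between the libraries themselves, with mutant-to-control ratios from 0.149 for Gja5 to 1.91 for Dll4 in all Cdh5-positive cells. Whether each set holds the same kinds of cell in both libraries was not tested.

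Cells without a UMI of 6 G2/M genes (772 control, 502 mutant; medians 2636.5 and 2719.5 UMIs, against 11142 and 9578 in cells with at least 3 of them) were the set with the highest transport sum in the control, 498 CPM (473 to 525), against 141 CPM (137 to 144) in cells with at least 3 of these genes. Their glycolysis sum was the lower one, 3355 against 4464 CPM in the control, and in the mutant the values were 11101 and 11872 CPM. The ratio of the 37 genes was 2.93 (2.87 to 2.99) without G2/M genes and 2.43 (2.41 to 2.44) with at least 3. In cells without G2/M genes the log2 ratio was higher for some genes, at 3.90 for Hk2, 6.84 for Slc2a3 and 2.35 for Pdk1. In all Cdh5-positive cells these were 2.45, 6.21 and 1.66. Others were lower there, with 1.16 for Slc2a1, 0.38 for Hk1 and 1.54 for Pfkfb3, against 1.65, 0.92 and 1.98. The Slc2a3 value rested on 11 control UMIs, and its ratio interval of 66.6 to 241 held the 74.0 of all Cdh5-positive cells. Transport was 3.13-fold higher (2.94 to 3.34) without G2/M genes and 4.58-fold (4.42 to 4.74) with at least 3.

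Markers of smooth muscle moved with genotype. All 3 with at least 20 UMIs (Acta2, Tagln and Cnn1) were at least 2-fold higher in mutant Cdh5-positive cells, where 8.11% of all genes were. Myh11 had 6 UMIs in each library and was not compared. The sum of the 4 markers was 35.7 CPM in control and 167 CPM in mutant cells. In the 110 control and 72 mutant Cdh5-positive cells with at least 2 of these markers, the 37 genes stood at 4327 and 14498 CPM, with transport at 80.6 CPM (65.0 to 98.9) and 1597 CPM (1492 to 1708). Without any cell bearing a hematopoietic, mesenchymal, neural or smooth muscle marker the ratio of the 37 genes was 2.45, against 2.49 in all Cdh5-positive cells. Hematopoietic markers were lower in the mutant, 5 of 7 by at least 2-fold, where 10.1% of all genes were, with sums of 40.5 and 19.3 CPM. All 6 erythroid markers were at least 2-fold lower too. The part of these blood cell markers in the results was not tested.

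**Figure D4:**
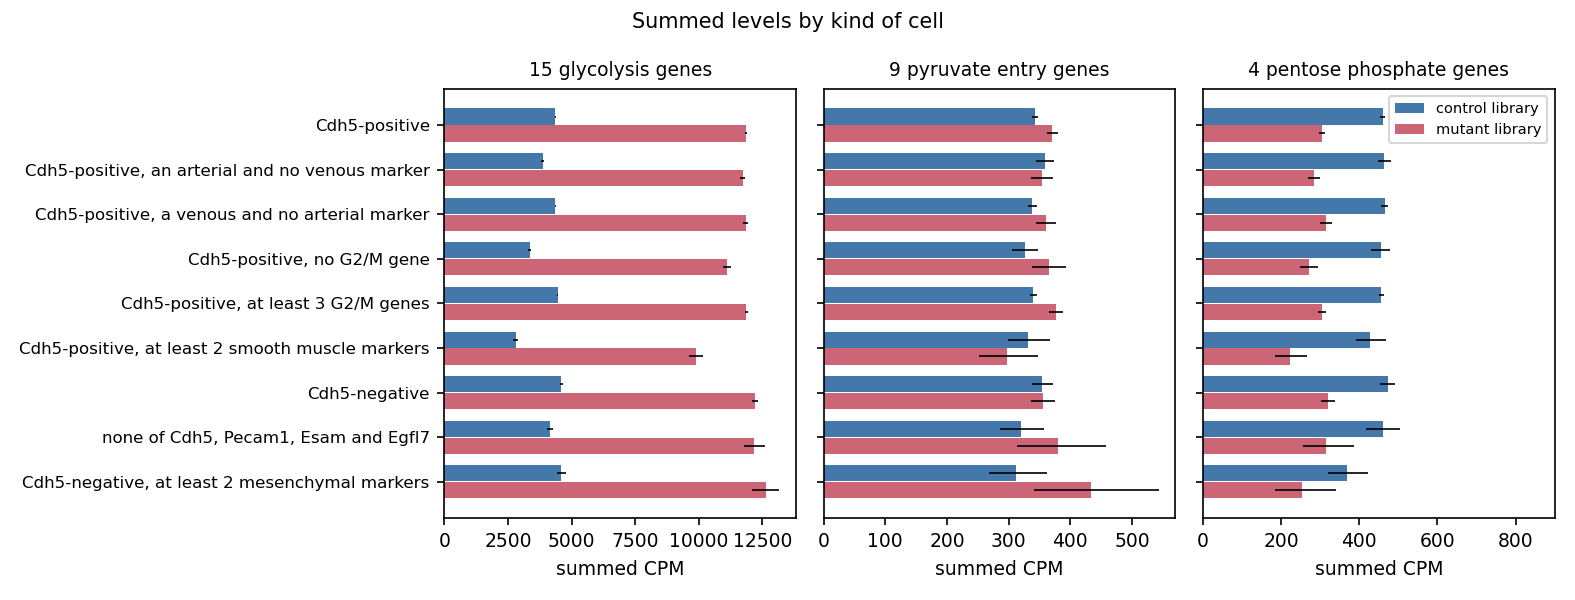
Summed CPM of the glycolysis, pyruvate entry and pentose phosphate genes in 9 sets of cells, control in blue and mutant in red, with 95% Poisson intervals. In each set glycolysis is higher and the pentose phosphate sum lower in the mutant, while the pyruvate entry bars lie closer together.

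In all, 1522 control and 0 mutant Cdh5-positive cells had a UMI of a Y-linked gene, and 4 of the genes, Pgk1, Pdk3, Pdha1 and G6pdx, lie on the X chromosome. Against the 2499 control cells with Xist and no Y-linked UMI, the ratio of the 37 genes was 2.48 and the log2 ratios of the 4 genes were 2.86, 0.28, -0.03 and 0.02 in that order.

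Cell by cell, the libraries hardly overlapped in these transcripts. Cells were thinned at random to 2500 UMIs, which kept 4962 control and 1911 mutant Cdh5-positive cells and left out 775 and 441 shallower ones. The 37 genes then had a median of 16 UMIs in control cells (5th to 95th percentile 7 to 26) and 40 in mutant cells (25 to 58). Only 3 of 4962 control cells reached the mutant median, and 7 of 1911 mutant cells were at or under the control median. Without thinning, the sums above gave a ratio of 2.49.

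For the pentose phosphate genes the counts per cell were too low to separate cells, with means of 1.17 and 0.761 UMIs per thinned cell. Across cells of 1 library, glycolysis and lactate sums had a Pearson correlation of 0.316 in 4962 control and 0.286 in 1911 mutant cells, while transport and glycolysis sums had -0.02 and 0.01. These are descriptions of sparse counts from cells that share a library.

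**Figure D5:**
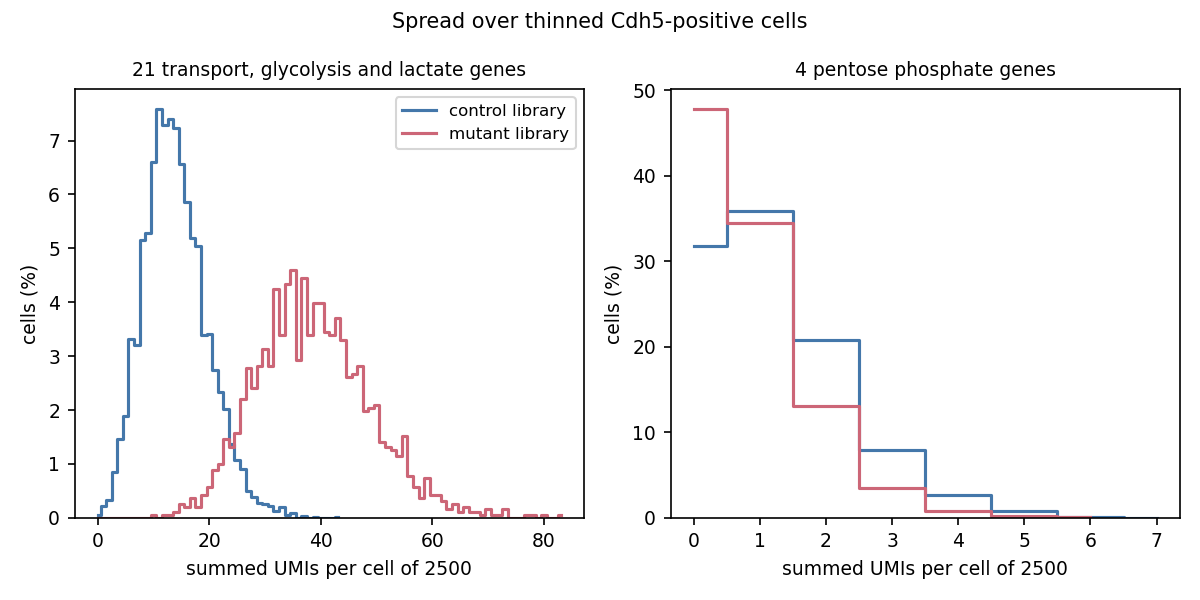
Share of Cdh5-positive cells, in percent, at each summed UMI count after thinning to 2500 UMIs, control in blue and mutant in red, for 21 transport, glycolysis and lactate genes (left) and 4 pentose phosphate genes (right). The left curves peak apart, with medians of 13 and 38 UMIs, and the right ones overlap with more mutant cells at 0.

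Other genes of glucose use lay on both sides in Cdh5-positive cells. Of 24 further transport and glycolysis genes, 12 were compared, with 4 at least 2-fold higher and 3 at least 2-fold lower, where 8.11% and 10.1% of all genes were, and 6 had ratios under 1. Their median log2 ratio was -0.01. Among the higher ones were Eno1b at 3.03-fold, the intracellular transporter Slc2a8 at 2.74-fold and Eno3 at 2.11-fold. The lower ones were Tigar, which lowers fructose 2,6-bisphosphate, at 0.330-fold (0.219 to 0.481), and the glycerol 3-phosphate dehydrogenases Gpd1l at 0.432-fold and Gpd2 at 0.486-fold. Eno1b is a near copy of Eno1, and its reads may be of either.

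Of 11 further lactate and pyruvate genes, 7 were compared. Of these, 1 was at least 2-fold higher and 1 at least 2-fold lower, where 8.11% and 10.1% of all genes were. The higher one was Bsg, which encodes basigin, the partner that brings MCT1 and MCT4 to the membrane. Bsg stood at 463 and 1261 CPM, with a ratio of 2.73 (2.68 to 2.78). Pdp2, a phosphatase that reactivates pyruvate dehydrogenase, was lower, with 82 and 8 UMIs and a ratio of 0.308 (0.129 to 0.636). Of 7 further pentose phosphate genes, 6 were compared and none passed 2-fold either way, where 8.11% of all genes were higher and 10.1% lower. Their median log2 ratio was -0.32, against -0.11 over all genes.

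Of 9 glycogen genes, 4 were at least 2-fold higher in the mutant, against 8.11% of all genes. None was at least 2-fold lower, against 10.1% of all genes. Pygl, which breaks down glycogen, had 68 UMIs in the control (1.22 CPM) and 269 in the mutant (15.2 CPM), a ratio of 12.5 (9.53 to 16.5). Pgm2, a phosphoglucomutase gene, stood at 20.4 and 93.3 CPM, 4.57-fold higher (4.24 to 4.94), Gys1, the glycogen synthase, was 3.35-fold higher and Gbe1, the branching enzyme, 3.04-fold. Citric acid cycle genes had no member of 16 at least 2-fold higher, where 8.11% of all genes were. Ratios were under 1 in 12 of 16. The median log2 ratio of the 16 was -0.34, against -0.11 over all genes compared. The 2 of 16 at least 2-fold lower are a share near the 10.1% of all genes, and were Idh3a, at 64.8 and 27.3 CPM (ratio 0.421, 0.383 to 0.463), and Ogdh, at 38.7 and 18.2 CPM (0.471, 0.417 to 0.529).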

How the data were processed

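UMI counts of 27998 genes per cell were deposited by the authors as a gene-by-cell table with 2 tables of genes and cells, per the file headers. Per the submitters' processing notes, Cell Ranger and genome build mm10 were used, with no version, annotation release or strand setting in those notes. Cells were grouped by the genotype word of the deposited cell table. No cell-type annotation was used.

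Counts were summed per library over cells with at least 1 Cdh5 UMI and over the others, and each sum was scaled to 1000000 UMIs of its class (CPM). Cdh5-positive cells held 55944499 control and 17729254 mutant UMIs, Cdh5-negative cells 4845868 and 3783459. Log2 ratios had 0.5 UMI added to each sum. Genes with at least 20 UMIs over both libraries were compared, and a ratio of 2 was the rule of size. Intervals at 95% were exact: Poisson for levels, binomial conditional on the summed UMIs for ratios and Clopper-Pearson for shares. The floor is 3 UMIs. For comparisons at equal depth, cells were thinned to 2500 UMIs (seed 1). Tools were Python 3.11.15, numpy 2.4.6, scipy 1.17.1, pandas 2.3.3, matplotlib 3.10.9 and, for TMM factors only, edgeR 4.0.16. The ratio, interval and thinning steps were tested on simulated data.

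The members, the other pathway lists, the marker lists and the promoter cores were chosen with earlier results of these data known. Full values are given for members that led a step by ratio or level and for members past 2-fold; of other pathway genes, those past 2-fold are named, at most 4 per list, except that some are not reported here. Marker lists covered endothelial, arterial, venous, hematopoietic, erythroid, mesenchymal, neural and smooth muscle cells. Of these, 2 of 5 arterial markers (Gja4 and Gja5) were at least 2-fold lower in mutant Cdh5-positive cells, where 10.1% of all genes were. The other arterial markers, Dll4, Hey1 and Efnb2, had ratios of 1.91 (1.73 to 2.10), 1.35 (1.23 to 1.48) and 0.835 (0.772 to 0.902). Also at least 2-fold lower there were 2 of 3 venous and 2 of 5 mesenchymal markers. No endothelial or neural marker passed 2-fold in these cells. Doublets were neither called nor removed, and an alternative dropped the deepest 1% of each library's cells. Other alternatives changed the scaling, the filter on low counts, the Cdh5 rule, depth, weighting, cell makeup and sex mix. Gene positions and near copies come from GENCODE vM21 on GRCm38, and promoters from RefSeq.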

Additional observations from a re-analysis of the deposited data

How the results depend on the processing

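No paired analysis was possible because each group had 1 library. The 21 genes at least 2-fold higher numbered 18 to 22 under the alternatives run. The summed ratio of 2.49 in Cdh5-positive cells was 2.59 with TMM, 2.59 with median-of-ratios factors, 2.68 with totals without mitochondrial, ribosomal and hemoglobin genes, 2.51 with totals without the members, 2.45 without cells bearing another class's marker, 2.54 in thinned cells, 2.55 as a mean over cells, 2.50 and 2.46 in cells with an arterial or a venous marker and 2.93 without G2/M genes. In depth ranges added after seeing the data it was 2.66 under 5000 UMIs, 2.51 from 5000 to 10000 and 2.46 over 10000. The median log2 ratio of 1.23 was 1.28 with TMM and with median of ratios, 1.33 with reduced totals and as a mean over cells, and 1.37 without G2/M genes; reduced totals moved the median of all genes by 0.11.

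The count of 2 genes at least 2-fold lower was 1 with at least 200 UMIs, at least 2 Cdh5 UMIs, 2 of 4 endothelial genes, no other class's marker, a mean over cells, an arterial marker, and control cells with Xist and no Y-linked UMI. Thinning turned Pfkfb2 to a log2 ratio of 0.31. In Cdh5-negative cells the ratio of 2.42 was 2.57 with reduced totals, 2.59 with Xist-positive control cells and 2.71 with none of 4 endothelial genes. Cdh5-positive over Cdh5-negative in the control, 0.961, was 0.916 with reduced totals, 0.934 thinned and 0.945 as a mean over cells, and reversed to 1.03 with Xist-positive cells and 1.08 against cells with none of 4 endothelial genes; in the mutant, 0.988 became 0.956 with reduced totals and 0.971 thinned. The cause of these moves was not tested. Of 36 compared genes, 28 kept their direction in each alternative; the other 8 (Pfkfb2, Pfkfb4, Ldhb, Slc16a1, Pdhb, Mpc2, G6pdx and Tkt) reversed in at least 1.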
